A study of Mus musculus with 3 samples.

Results

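The cells described here were chosen from single-cell RNA sequencing (scRNA-seq) libraries of mouse intestinal crypts by the villus-base enterocyte genes Edn2, Ccl20, Rbp7, Bmp3, Rflnb and Dmbt1. A barcode was kept when it held 1000 or more detected genes and no more than 15% of its unique molecular identifiers (UMIs, the counted transcripts) came from mitochondrially encoded genes. A kept cell was a member when it had at least 1 UMI of 4 or more of these 6 genes, fewer than 4 of the duodenal-type genes Akp3, Slc40a1, Tmprss15, Otop3, Sult6b2 and Gm2061, and fewer than 4 of the jejunal-type genes Cubn, Slc5a4b, Dnase1, Bst1, Leap2 and Ace. The rule found 1502 members among 5594 kept cells (26.85%), out of 25554 deposited barcodes. The gene sets of the rule are markers that the study took from clusters of these same samples. Every level of these 18 genes is therefore given as a description. No test of them is read as a result, although some are counted among the genes past the test below. Below, the members are called Edn2-Rbp7 cells.

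There were 2 libraries of VillinCreERT2 Arid3a fl/fl mice (Arid3a cKO 1 and Arid3a cKO 2) and 1 library of VillinCreERT2 mice (WT), which carry the same recombinase without the floxed gene. Villin drives the tamoxifen-dependent Cre in the whole intestinal epithelium, so the deletion was not limited to the villus base. Tamoxifen was first given to mice aged 8 to 10 weeks and tissue was taken 1 month later. Isolated crypts were dissociated, and living cells positive for the epithelial surface protein Epcam and negative for CD45 (immune cells) and CD31 (endothelium) were sorted and captured with 10x 3′ chemistry. The design text speaks of biological replicates, but no label ties a library to an animal, and 1 WT library was analysed here. The spread behind the p-values below comes from the 2 cKO libraries, moderated across genes. The 1 WT library adds no measure of spread, so the p-values do not cover the spread between WT mice.

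Absorptive enterocytes arise from dividing progenitors in the crypt, leave the cell cycle near the crypt mouth and move along the villus until they are shed at its tip. At the villus base they carry antimicrobial and stress-handling genes, in the middle of the villus genes for taking up sugars and peptides, and near the tip genes for purine handling and adhesion. Edn2 encodes a vasoactive endothelin peptide, Ccl20 the chemokine ligand of Ccr6, Rbp7 a cellular retinol-binding protein and Bmp3 a member of the TGF-beta family that opposes BMP signalling. Rflnb encodes a partner of the actin crosslinker filamin, Dmbt1 a secreted scavenger protein of mucosal surfaces, and Krt19 a keratin of simple epithelia.

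The libraries held 6845, 6893 and 11816 barcodes for Arid3a cKO 1, Arid3a cKO 2 and WT, an order kept wherever 3 values are given together. Between 66.37% and 79.22% of barcodes in a library exceeded the mitochondrial limit. Members had a median of 34444.5, 41222 and 33938 UMIs, above the medians of 31391.5, 35764 and 29895 over all kept cells. The libraries shared between 11 and 18 barcodes in pairs, and no barcode of a member was shared. For comparison, 1965 kept cells with 4 or more of the duodenal-type or of the jejunal-type genes are called mature-list cells. A further 759 kept cells outside both sets, with at least 4 of the stem list genes Lgr5, Olfm4, Ascl2, Smoc2, Slc12a2 and Axin2, are called stem-list cells.

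The markers checked the label only in part. Krt19 and the absorptive genes Fabp1 and Reg1 were present in every library, but 33.95%, 39.24% and 41.07% of members also had at least 4 of the 6 stem list genes. Kept cells with at least 21000 UMIs (1742, 1274 and 1481) were then thinned to that number, the shallower ones were left out, and members were chosen again (475, 293 and 282). The shares were then 21.68%, 25.94% and 24.11%. At that depth, at least 6 of 18 cell cycle genes were seen in 53.47% of members of Arid3a cKO 1 (exact 95% binomial interval 48.87 to 58.03), 60.41% of Arid3a cKO 2 and 59.57% of WT. The same share was between 2.578% and 5.634% in mature-list cells and between 95.16% and 97.61% in stem-list cells. The members thus span dividing and non-dividing cells, the label holds only in part, and no other cell type name is given. All intervals in this text cover counting error only.

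Edn2 (chr4:120161206-120167360, plus strand, GRCm38 with GENCODE M21 annotation here and below) was at 60.11, 47.07 and 42.91 CPM in members, where CPM is the gene's count scaled to a fixed total per library. It was at 18.94, 16.87 and 12.69 CPM in mature-list cells and at 14.97, 11.19 and 14.21 CPM in stem-list cells. It was detected in 77.78%, 73.29% and 70.07% of members and in 32.92%, 30.49% and 25.46% of mature-list cells, whose median depths of 32838.5, 37235 and 31920 UMIs were somewhat lower. In each library members had the highest level, as their selection on the gene requires. Both cKO libraries lay above WT.

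Rbp7 (chr4:149449687-149454978, minus strand) was at 154.1, 152.7 and 159.8 CPM in members, the flattest of the 6 rule genes across libraries. In mature-list cells it was at 19.11, 17.29 and 19.24 CPM and was detected in 15.98%, 14.14% and 13.65% of cells, against 86.27%, 89.6% and 88.4% of members. Bmp3 (chr5:98854415-98884396, plus strand) was at 32.31, 27.52 and 27.02 CPM in members. It lay between 4.111 and 6.964 CPM in mature-list cells and between 6.314 and 9.837 CPM in stem-list cells. Rflnb (chr11:76019194-76027782, minus strand) was the most widely detected of the low rule genes, in 93.06%, 94.56% and 93.27% of members, at 79.15, 78.98 and 73.18 CPM.

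Ccl20 (chr1:83116766-83119167, plus strand) was the most unevenly spread rule gene. It was seen in only 46.3%, 51.54% and 47.1% of members, yet its highest single cells held 48, 67 and 19 UMIs. Its level was 48.37, 61.48 and 30 CPM, with both cKO libraries above WT. Dmbt1 (chr7:131032053-131121630, plus strand) went the other way, at 1287.7, 1477.8 and 1624.3 CPM with WT highest, and was found in at least 99.29% of members of every library. Mature-list cells held 206, 236.6 and 260.8 CPM of Dmbt1, in the same order of libraries.

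Krt19 (chr11:100140810-100148665, minus strand) marks these cells in the study but is not part of the rule. It was detected in every member, at 2917, 2696 and 2460.8 CPM, with both cKO libraries above WT. Its level was 1174.5, 1047.4 and 897.9 CPM in mature-list cells and 1094, 1213.4 and 969.1 CPM in stem-list cells. The log2 fold change of Arid3a cKO over WT in members was 0.23 (SE 0.14), with an adjusted p of 0.69, so Krt19 did not pass the test.

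**Figure D1:**
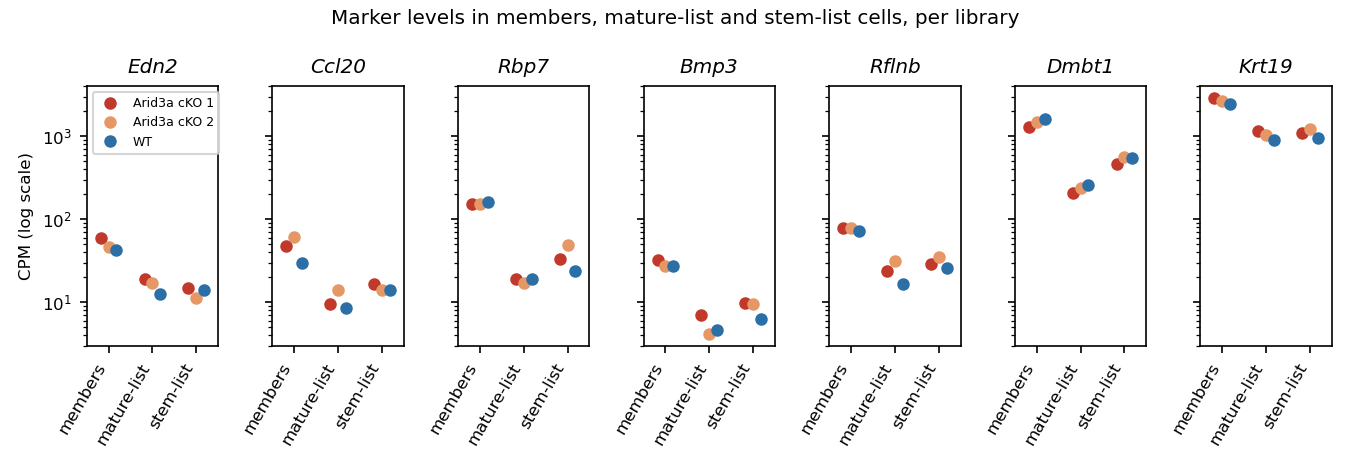
Level in CPM (log axis) of the 6 rule genes and Krt19 in members, mature-list cells and stem-list cells, 1 point per library (red Arid3a cKO 1, orange Arid3a cKO 2, blue WT). In every panel and library the members hold the highest level, which the rule fixes for all panels but Krt19, where members lie between 2460.8 and 2917 CPM and the other cells between 897.9 and 1213.4 CPM.

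The promoters of 4 of the rule genes are shown so that genes detected in the same cells can be compared in sequence. Each is the 250 bases before the RefSeq start, read on the gene's own strand from GRCm38.p6. The intervals are chr4:120160956-120161205 for Edn2, chr1:83116516-83116765 for Ccl20, chr4:149454969-149455218 for Rbp7 and chr11:76027783-76028032 for Rflnb. Capitals mark matches to the 6 motifs listed below the sequences, which here lie in Ccl20 alone.
Edn2: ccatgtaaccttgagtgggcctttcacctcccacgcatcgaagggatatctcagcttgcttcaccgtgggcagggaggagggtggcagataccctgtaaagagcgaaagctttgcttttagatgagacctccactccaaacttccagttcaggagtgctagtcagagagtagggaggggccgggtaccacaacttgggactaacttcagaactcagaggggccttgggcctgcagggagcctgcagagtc
Ccl20: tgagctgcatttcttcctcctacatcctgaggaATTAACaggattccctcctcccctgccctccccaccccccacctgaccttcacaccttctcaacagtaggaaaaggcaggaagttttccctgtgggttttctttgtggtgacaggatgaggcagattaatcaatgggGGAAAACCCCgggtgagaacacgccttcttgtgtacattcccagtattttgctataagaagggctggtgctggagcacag
Rbp7: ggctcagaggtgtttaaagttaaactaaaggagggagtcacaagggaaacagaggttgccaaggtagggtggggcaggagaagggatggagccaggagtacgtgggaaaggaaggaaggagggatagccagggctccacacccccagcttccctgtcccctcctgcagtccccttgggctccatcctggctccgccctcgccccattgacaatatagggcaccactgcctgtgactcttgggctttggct
Rflnb: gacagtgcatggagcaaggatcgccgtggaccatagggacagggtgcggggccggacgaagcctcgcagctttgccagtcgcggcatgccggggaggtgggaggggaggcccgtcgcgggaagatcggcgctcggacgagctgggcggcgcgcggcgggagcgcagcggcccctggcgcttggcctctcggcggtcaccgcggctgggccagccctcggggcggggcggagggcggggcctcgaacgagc
Both strands were searched for 6 motifs. These were a TATA box (TATAAA), an HNF4 core (CAAAGTCCA), a CDX-type site (TTTATTG), an HNF1 motif (GTTAAT), AP-1 (TGANTCA) and NF-kB (GGG, any 2 bases, then TTTCC). The Ccl20 promoter held the HNF1 motif 217 bases before the start and the NF-kB letters 80 bases before it, both on the minus strand and not overlapping. Of 32851 promoters of that length, 6.43% held the HNF1 motif and 1.41% the NF-kB letters. The others were in 12.4% (TATA), 0.384% (HNF4 core), 4.2% (CDX-type) and 6.75% (AP-1) of promoters, and in none of the 4 shown. This absence holds for the full letters only. The shorter CAAAG, the start of the HNF4 core, is not marked in capitals and lies on the minus strand in each of the 4.

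At the edge of the rule, members with exactly 4 rule genes (319, 200 and 229 cells) had Edn2 at 51.72, 31.83 and 32.75 CPM. Cells with 3 rule genes that were not mature-list cells (254, 190 and 260) had Edn2 at 19.47, 16.1 and 19.32 CPM. Rbp7 fell off less sharply there in the cKO libraries, from 135.1 and 133.3 CPM with 4 genes to 115.4 and 128.9 CPM with 3. In WT it fell about as much as Edn2, from 142.8 to 79.81 CPM. In all 727, 496 and 485 kept cells had 4 or more rule genes. The limit on duodenal-type genes alone removed 40, 41 and 14 of them, that on jejunal-type genes alone 31, 18 and 33, and both limits together 8, 14 and 7.

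Within the members, the number of stem list genes detected went with absorptive and dividing genes in opposite ways. With 0 to 1 stem list genes there were 278, 142 and 142 members, with 2 to 3 there were 150, 115 and 112, and with 4 to 6 there were 220, 166 and 177. Fabp1, a cytosolic fatty acid carrier of enterocytes, was at 4612.5, 5385.3 and 5285.2 CPM in the group with fewest stem list genes. It was at 1337.7, 1016 and 797 CPM in the middle group and at 348.8, 291.8 and 241.1 CPM in the group with most. Sis, the sucrase-isomaltase of the brush border, ran the same way from 1573.2, 1263.7 and 1344.1 CPM to 90.48, 49.3 and 87.68 CPM. Reg1, a secreted lectin-like protein of the villus base, ran from 6775, 6825.3 and 4216.4 CPM to 333.2, 268.8 and 137.8 CPM.

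The rule genes themselves did not share a single order. Edn2 was highest with fewest stem list genes, at 75.43, 63.81 and 59.72 CPM, and lowest with most, at 44.02, 34.64 and 34.45 CPM. Rbp7 instead was highest in the middle group, at 227.1, 202.8 and 221.9 CPM, against 172.2, 167.3 and 179.2 CPM with fewest and 98.47, 111.9 and 113.7 CPM with most. Dmbt1 also peaked in the middle group of all 3 libraries, at 1818.9, 1866 and 2134.9 CPM. Mki67, a marker of dividing cells, was at 43.37, 38.4 and 42.91 CPM with fewest stem list genes and at 195.7, 182.2 and 210.5 CPM in the middle group. Members with most stem list genes held 215.3, 222.2 and 300.7 CPM of Mki67, so the middle group combined the Rbp7 peak with dividing cells. Median depth rose over these groups, for example from 31385 to 42958 UMIs in Arid3a cKO 1, and its part in the counts of stem list genes is covered only by the thinned shares above.

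**Figure D2:**
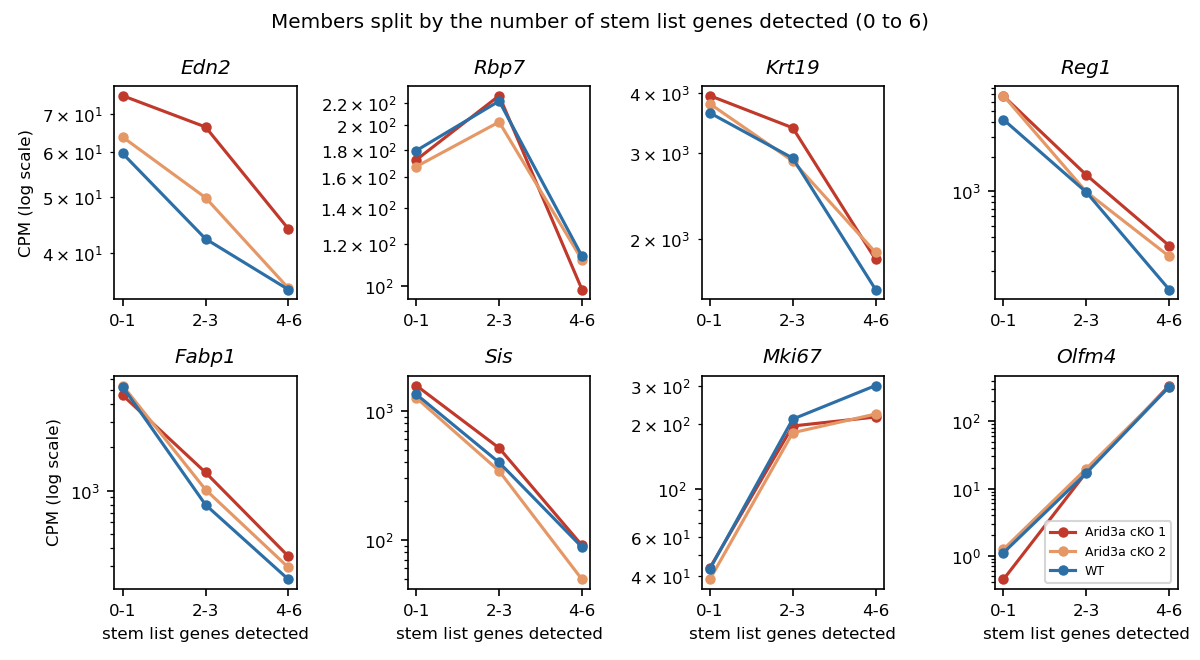
Level in CPM (log axes, with a different range in each panel) of 8 genes in members split by how many of the 6 stem list genes were detected, 1 line per library. Edn2, Krt19, Reg1, Fabp1 and Sis fall from left to right, Mki67 and Olfm4 rise, and Rbp7 is highest in the middle group at 202.8 to 227.1 CPM.

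Compared with mature-list cells, members were rich in cell cycle genes and poor in absorptive ones. Of 2780 genes with a mean of at least 50 CPM in members, 597 were at least 2-fold higher than in mature-list cells in all 3 libraries, and of 2510 genes so expressed in mature-list cells 441 were at least 2-fold lower. Both sets of cells were cut out by measured genes, so these are descriptions, on the log2 scale of CPM + 5. The highest were Hist1h1b, a linker histone (ratios of 3.94, 3.70 and 4.11), Ube2c of the mitotic ubiquitin system (3.51, 3.22 and 3.35) and Top2a, topoisomerase II (3.47, 3.14 and 3.59). Mki67, Clca3b, Cenpf, Cdca3 and Ccnd2 followed. The lowest was Cyp3a11, a drug-metabolising cytochrome, at 9.193, 10.57 and 12.68 CPM in members and 479.3, 574.3 and 729.8 CPM in mature-list cells. Apoa4, a chylomicron apolipoprotein, was at 146.2, 206 and 160.7 against 4790.6, 4908.8 and 3994.2 CPM. Lct, the lactase, was at 15.83, 19.6 and 22.34 against 533.4, 560.8 and 579 CPM. Gm5485, Cyp2b10, Selenop, Ggt1 and Pdzk1 were the others.

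Against stem-list cells the same members looked absorptive. Of 2777 genes at 50 CPM or more in members, 171 were at least 2-fold higher in all libraries, and of 2509 in stem-list cells 43 were lower. Reg1 was at 2795.7, 2306.3 and 1385.9 CPM in members and at 208.2, 67.57 and 98.81 CPM in stem-list cells. Fabp1 was at 2048.1, 1921.6 and 1651.8 against 268.2, 122 and 134 CPM. Cdkn2b, an inhibitor of the G1 kinases, had log2 ratios of 3.33, 3.43 and 2.95. Cox7a1, St3gal4, Sis, Gsta1 and Chp2 completed the highest genes. All of the lowest, Ghrl, Ang4, Defa26, Defa17, Itln1, Defa24, Gm15292 and Defa22, are genes of Paneth or enteroendocrine cells or of the defensin family.

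By list, 16 of 16 brush border and pan-enterocyte markers were at least 2-fold lower in members than in mature-list cells in all libraries, while 13 of 16 were that much higher than in stem-list cells. All 12 mid-villus genes, 18 of 19 fat absorption genes and 20 of 21 sugar and peptide uptake genes were lower than in mature-list cells. Of the villus-base genes over 5 CPM, 2 of 13 were higher and 6 of 13 lower than in mature-list cells, and 11 of 13 were higher than in stem-list cells. Cell cycle genes were higher than in mature-list cells for 17 of 18 and differed 2-fold from stem-list cells for 0 of 18. The 6 stem list genes were all higher than in mature-list cells, and 5 of them were lower than in stem-list cells.

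The next comparison asked whether loss of Arid3a went with a different share of these cells. Members were 648 of 2134 kept cells in Arid3a cKO 1 (30.37%, exact 95% binomial interval 28.42 to 32.37). They were 423 of 1550 in Arid3a cKO 2 (27.29%, 25.09 to 29.58) and 431 of 1910 in WT (22.57%, 20.71 to 24.51). Both cKO libraries lay above WT, with a mean of 28.83% ± 2.18 (SD, n = 2) and a difference of 6.26 percentage points. No test was run on the 3 shares, since an exact permutation test over 2 libraries against 1 cannot give a p below 0.333. Because all shares are of sorted cells that passed the filters, and the mitochondrial limit removed more barcodes in WT than in either cKO library, this is a share of recovered cells.

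In the thinned cells the shares of members were 27.27% (25.19 to 29.42), 23% (20.71 to 25.41) and 19.04% (17.07 to 21.14). With 5 of 6 rule genes required they were 15.42% (13.91 to 17.02), 14.39% (12.68 to 16.23) and 10.58% (9.232 to 12.04). The order of the libraries was the same in each, though in thinned cells the intervals of Arid3a cKO 2 and WT overlapped. After a split by stem list genes, members with fewer than 4 kept this order and those with 4 or more did not. Members with fewer than 4 of these genes were 20.06% (18.38 to 21.82), 16.58% (14.76 to 18.53) and 13.3% (11.81 to 14.9) of kept cells. The intervals of Arid3a cKO 2 and WT overlapped here too. Members with 4 or more were 10.31% (9.051 to 11.68), 10.71% (9.213 to 12.36) and 9.267% (8.004 to 10.66), with overlapping intervals.

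**Figure D3:**
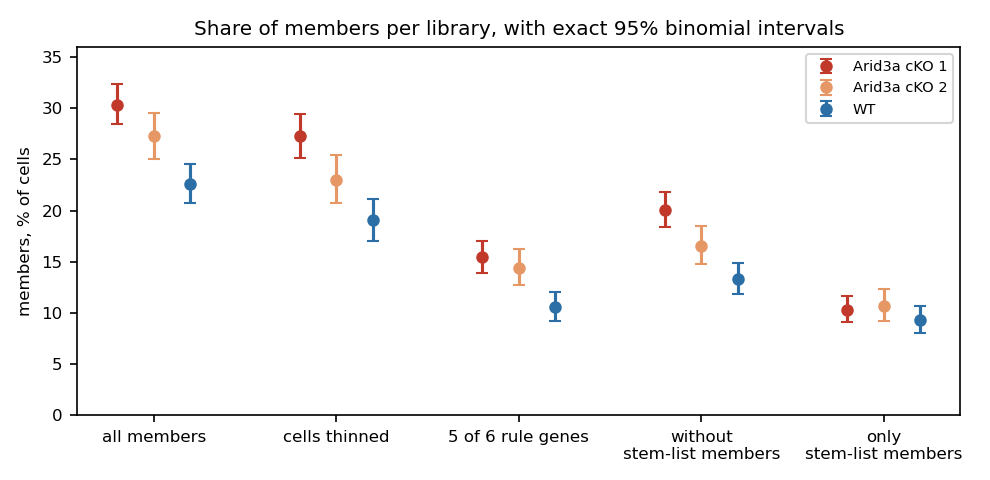
Members as a percentage of kept cells in each library (points) with exact 95% binomial intervals (bars), for the rule as given and for 4 other definitions. Both cKO libraries lie above WT in each, and the intervals overlap among all 3 libraries for members with 4 or more stem list genes, at 9.267% to 10.71%.

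Arid3a (chr10:79927043-79955018, plus strand), an AT-rich DNA-binding factor and the targeted gene, had 15, 8 and 30 UMIs in members. That is 0.572 CPM (exact 95% Poisson interval 0.32 to 0.944), 0.399 CPM (0.172 to 0.786) and 1.65 CPM (1.12 to 2.36). Both cKO libraries were below WT, with a log2 fold change of -1.69 (SE 0.48) and an adjusted p of 0.101. Which exons the floxed allele removes is not given in the sources used here, so these 3′ reads may lie outside the deleted part. The ARID family, Arid3a included, gave 0 calls of 13 genes tested (edgeR, 2 at an unadjusted p under 0.05, and 0 with DESeq2).

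Levels in members were then compared between Arid3a cKO and WT with edgeR's quasi-likelihood test on UMIs summed per library, with Benjamini-Hochberg adjustment at 0.05. Of 13450 genes tested 156 passed (1.16% of genes tested), 80 of them higher in Arid3a cKO (0.595%) and 76 lower (0.565%). Among those lower in Arid3a cKO were 6 of 10 MHC class II genes, 7 of 13 chaperones and the antimicrobial lectins Reg3b and Reg3g, and among those higher were Reg1, S100g and Apoa1. In all 156 both cKO libraries lay on the same side of WT, and the median log2 fold change over all genes was -0.0027. The lone WT library was assumed to vary as the cKO libraries do. The 156, and the 80 higher, also count the rule genes Ccl20, Slc40a1, Otop3 and Sult6b2. Members were chosen on the counts of these 4 genes, so the test cannot decide whether they differ. Their calls are not read as results, and the 4 genes are described by their levels alone.

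A few cells carried much of the RNA of some of these genes. In 44 of the 156, 5 member cells held at least 50% of the gene's UMIs in its highest library, 26 of them higher and 18 lower in Arid3a cKO. They include Sst, the somatostatin gene, at 87.58, 173.5 and 1.048 CPM with 99.5% in 5 cells, and Gip, an incretin hormone gene, at 5.416, 2.393 and 500.3 CPM with 98.9% in 5 WT cells. The hormone genes Iapp, Ghrl, Pyy and Tac1 and the mesenchymal gene Vim were of the same kind, each with at least 97.5% in 5 cells. For Iapp WT held 0 UMIs, so its fitted fold is not given. Removal of members with over 0.5% of UMIs in goblet, Paneth, enteroendocrine or tuft markers (25, 24 and 32 cells), a choice made after the data were seen, left 206 genes past the test (1.57%), 114 higher (0.867%) and 92 lower (0.700%). The spread in that fit was pooled fully over genes (infinite prior degrees of freedom, against 25.2 with all members). Of the 206, 114 were among the 156, 113 of these in the same direction. Members without the stem-list ones gave 45 genes (0.375%), 13 higher (0.108%) and 32 lower (0.267%). Those with 4 or more stem list genes gave 99 (0.814%), 46 higher (0.378%) and 53 lower (0.436%).

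**Figure D4:**
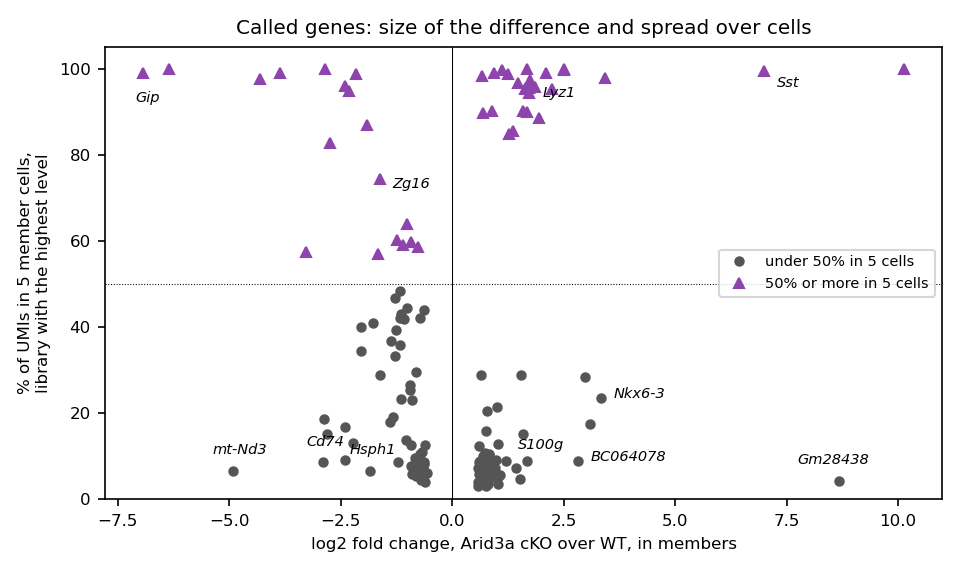
Each point is a gene past the test in members, by its log2 fold change of Arid3a cKO over WT (x axis) and by the percentage of its UMIs held by 5 member cells in the library where it is highest (y axis). The 44 triangles at or over 50% include Sst, Gip and Lyz1, while Cd74, Hsph1, S100g, Gm28438 and mt-Nd3 lie far below that line.

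The remaining genes among the 10 highest and the 10 lowest by log2 fold change were spread over more cells or were low. Gm28438, an unprocessed pseudogene on chromosome 1, was at 78.42, 57.74 and 0.1655 CPM with 4.232% of its UMIs in 5 cells, and mt-Nd3, a mitochondrially encoded subunit of complex I, was at 6.828, 8.477 and 236.6 CPM. Gm28438 and mt-Nd3 stood in opposite order between cKO and WT. Whether reads were divided between them was not tested, so neither level is certain. The transcribed pseudogene BC064078 was at 20.25, 20 and 2.923 CPM (log2 fold change 2.83, SE 0.22, adjusted p 9.93e-10). Gm21887 and Xlr3a, both X-linked, were at 2.403, 1.296 and 0.2206 CPM and at 2.327, 3.69 and 0.3861 CPM. Fmr1nb was at 0.4577, 0.4986 and 4.798 CPM with 57.5% in 5 WT cells. The defensin Defa21 and Fxyd6, of the family that regulates the sodium pump, had 99.7% and 100% of their UMIs in 5 cells.

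The MHC class II genes, which load and present peptides to CD4+ T cells, had the lowest median log2 fold change in members of the lists with more than 1 gene tested. All 10 were tested, 6 fell and 0 rose, with a median of -2.02. DESeq2 called 3 of the 10, and H2-Ab1, H2-Eb1 and H2-DMb1 did not pass with it (adjusted p 0.865, 1 and 0.0624). Cd74, the invariant chain, was at 46.34, 26.03 and 277.8 CPM, with WT far above both cKO libraries, a log2 fold change of -2.89 (SE 0.18) and an adjusted p of 1.43e-11. It was detected in 242 of 648, 107 of 423 and 375 of 431 members. H2-Ab1, a class II beta chain, was at 15.3, 6.682 and 60.33 CPM (log2 fold change -2.39, SE 0.22, adjusted p 2.51e-08). H2-Eb1 was at 7.057, 1.845 and 33.48 CPM and H2-Aa at 1.678, 0.8975 and 10.09 CPM, with log2 fold changes of -2.81 and -2.88. H2-DMa and H2-DMb1, which exchange the peptide, fell by 1.22 and 2.23 on the log2 scale. Ciita, the class II transactivator, did not pass at 0.3052, 0.2992 and 1.103 CPM (adjusted p 0.154).

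Cd74 was lower in both cKO libraries in every group of members. It was at 21.63, 33.24 and 175.6 CPM with 0 to 1 stem list genes, at 50.78, 19.4 and 240.3 CPM with 2 to 3, and at 64.07, 25.61 and 353 CPM with 4 to 6. Some immune cells also make these genes. A list of 11 markers of T and other immune cells, Ptprc and Cd3e among them, summed to 0.4196, 0.8975 and 0.4964 CPM in members with 6, 6 and 7 of them at 0. The list holds no marker specific to B cells or dendritic cells, so RNA from such cells in the class II counts was not tested. None of the 11 had enough UMIs to be tested.

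Chaperones of the heat shock response gave 7 lower and 0 higher of 13 tested, with a median log2 fold change of -0.60, and 6 calls with DESeq2. Hsph1, a nucleotide exchange factor of the Hsp70 system, was at 40.05, 54.55 and 174.2 CPM, a log2 fold change of -1.84 (SE 0.15, adjusted p 4.61e-09). Hsp90aa1, the inducible Hsp90, was at 466.1, 588.5 and 1025.5 CPM (log2 fold change -0.91, adjusted p 0.000248). Both cKO libraries were below WT in each of the 7, which also include Hspa4l, Chordc1, Dnaja1, Hspa8 and Hspa1a, with log2 fold changes from -0.92 to -0.60. Hspa1a shares most of its sequence with Hspa1b, so how reads were divided between that pair is uncertain. Hsph1 was lower in cKO in each group of members, for instance at 25.07, 42.48 and 140 CPM with 0 to 1 stem list genes.

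The list also moved with the kind of cell. Summed over the list, chaperones were at 6050.7, 6937.2 and 9182.7 CPM in members, near the 6816, 7892.9 and 9418.7 CPM of stem-list cells and above the 2370.4, 2394.9 and 3430.8 CPM of mature-list cells.

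Mucosal defence genes gave 4 lower and 0 higher of 20 tested, with a list median of -0.03, near that of all genes, and DESeq2 called 2, Reg3b and Reg3g. Reg3b, a bactericidal C-type lectin, was at 305.5, 226.3 and 843.5 CPM, a log2 fold change of -1.62 (SE 0.15, adjusted p 1.90e-08). Its near copy Reg3g was at 511.5, 595.6 and 1083.1 CPM (-0.92, adjusted p 0.00012). The gasdermins Gsdmc4, at 13.5, 8.277 and 25.26 CPM, and Gsdmc2, at 1.373, 0.7978 and 3.916 CPM, passed with log2 fold changes of -1.16 and -1.77. Reads of these close paralogs could have been divided between copies. Reg3b was highest in members with fewest stem list genes, at 724.7, 676.5 and 2440.4 CPM, and fell to 21.51, 16.81 and 174.8 CPM with most.

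Interferon-response genes gave 3 lower of 18 tested, with a median of -0.30, and 1 call with DESeq2, Psmb8. They include Psmb8, an immunoproteasome subunit (107.5, 100.4 and 175.2 CPM, log2 fold change -0.71, adjusted p 0.00306) and the GTPase Igtp (-1.15). Outside these lists, the metallothionein Mt2 was at 14.57, 11.97 and 73.18 CPM (log2 fold change -2.41, adjusted p 4.93e-12). Mt1, its neighbour, was at 386.5, 322.8 and 601.1 CPM (-0.72, adjusted p 0.00326). Ccnd1, the G1 cyclin D1, was at 73.54, 76.14 and 123.2 CPM (-0.67, adjusted p 0.00622). Mt2, Mt1 and Ccnd1 were named after their values were seen.

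Reg1 was higher in Arid3a cKO, at 2795.7, 2306.3 and 1385.9 CPM, a log2 fold change of 0.92 (SE 0.15, adjusted p 0.000405). It was the only one of 14 villus-base genes to pass as higher, while Reg3b, Reg3g, Gsdmc2 and Gsdmc4 of that list passed as lower. At an unadjusted p under 0.05 in edgeR, 6 of the 14 were higher and 5 lower, with a list median of 0.00. DESeq2 called 3 of these 14. S100g, the calcium carrier calbindin D9k, was named after its values were seen. It was at 439.1, 351.3 and 177.6 CPM (log2 fold change 1.20, SE 0.15, adjusted p 9.51e-06). Apoa1, the main apolipoprotein of HDL, was at 603.3, 768.9 and 411.1 CPM (0.78, adjusted p 0.00428) and was the single gene past the test among 16 brush border and pan-enterocyte markers and among 19 fat absorption genes, whose medians were 0.31 and 0.19. DESeq2 called 2 and 1 genes of these lists. The 21 sugar and peptide uptake genes and the 12 mid-villus genes gave 0 calls in edgeR and in DESeq2, with medians of 0.22 and 0.21, and 6 and 3 of them were higher at an unadjusted p under 0.05. In thinned cells Apoa1 was at 0.15 (adjusted p 1) and Reg1 at 0.61 (adjusted p 0.196) on the log2 scale, so neither passed, and in only stem-list members Apoa1 was at -0.31 (adjusted p 0.924).

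Retinoid handling, the pathway of the rule gene Rbp7, gave 2 higher and 0 lower of 16 tested genes, with a median of 0.12. Rdh7, a retinol dehydrogenase, was at 111.5, 96.93 and 53.16 CPM (log2 fold change 1.02, SE 0.15, adjusted p 0.000123). Aldh1a1, which oxidises retinal to retinoic acid, was at 75.41, 54 and 40.09 CPM (0.74, SE 0.17, adjusted p 0.0236). Rbp2, the abundant retinol carrier of absorptive cells, did not pass at 1744.2, 1890.8 and 1285.4 CPM (0.54, adjusted p 0.0567). Aldh1a1 was at 169.6, 156.1 and 108.2 CPM in members with 0 to 1 stem list genes and at 13.16, 7.221 and 11.37 CPM with 4 to 6, where WT lay between the cKO libraries. Lrat and Dhrs3, which store and reduce the vitamin, differed by 0.04 and 0.10 on the log2 scale and did not pass. In thinned cells neither Rdh7 (0.76, adjusted p 0.132) nor Aldh1a1 (0.26, adjusted p 1) passed, and with DESeq2 Aldh1a1 did not (adjusted p 0.194).

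Around Edn2, 5 other endothelin system genes were tested and 1 rose, with a list median of 0.10. It was Mme, the membrane peptidase neprilysin that degrades endothelins and other peptides, at 98.72, 81.03 and 58.57 CPM (log2 fold change 0.66, adjusted p 0.0225). It did not pass with DESeq2 (adjusted p 0.0971) or in thinned cells (0.33, adjusted p 1). Edn1, the paralog of Edn2, was at 55.23, 55.65 and 53.39 CPM (0.10, adjusted p 0.924). The converting enzyme Ece1 was at 28.65, 24.58 and 27.46 CPM. Around Bmp3, the BMP and TGF-beta pathway gave 0 calls of 22 tested genes in edgeR and in DESeq2, with a median of 0.07 and 1 gene at an unadjusted p under 0.05. Around Ccl20, chemokines and cytokines gave 0 of 13 in both tools (6 at an unadjusted p under 0.05, median 0.16). Among them Areg, an EGF receptor ligand, had values of 156.8, 81.98 and 74.73 CPM (0.72, adjusted p 0.126). Keratins and filamin partners gave 0 of 9 in both tools, with 1 gene at an unadjusted p under 0.05.

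Among 28 intestinal transcription factors 2 rose, 0 fell and the median was -0.00, and DESeq2 called 0. Pdx1, a homeobox factor of the proximal gut, was at 30.52, 27.52 and 17.87 CPM (log2 fold change 0.75, SE 0.15, adjusted p 0.00749). Creb3l3, a lipid-metabolism factor of villus enterocytes, was at 81.06, 74.55 and 53.39 CPM (0.59, adjusted p 0.0433). Nkx6-3, a homeobox gene outside that list, was among the 10 highest genes at 4.997, 7.031 and 0.6067 CPM (3.33, adjusted p 5.37e-06). Of 14 immediate early genes 2 passed, both higher, and DESeq2 called 0 of the 14. They were Atf3, a stress-induced factor (483.4, 267.1 and 187.7 CPM, 1.04, adjusted p 0.00431), and Ier3 (26.93, 31.26 and 19.3 CPM, 0.63, adjusted p 0.0378). At an unadjusted p under 0.05 in edgeR, 11 of the 14 were higher and 0 lower, with a list median of 0.33. Atf3 and Creb3l3 are also the 2 genes past the test, both higher, among 12 villus-tip genes, of which DESeq2 called 0. In thinned cells Pdx1, Atf3 and Ier3 missed the threshold (adjusted p 0.0755, 0.0657 and 0.487), as did Creb3l3 (log2 fold change 0.25). Without stem-list members Pdx1, Creb3l3, Atf3 and Ier3 missed it too (adjusted p 0.247, 0.285, 0.109 and 0.252). Nkx6-3 passed in both (adjusted p 0.04 and 0.0129).

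Duodenal-type genes were also unlike between libraries. The duodenal-type rule genes Slc40a1, the iron exporter ferroportin, Otop3 and Sult6b2 were at 29.26, 28.77 and 18.53 CPM, at 16.94, 10.92 and 7.004 CPM and at 28.91, 40.84 and 17.1 CPM in members, each with WT lowest. Over all kept cells Akp3, an alkaline phosphatase of the same set, was at 29.37, 44.46 and 11.47 CPM. The part of intestine in each library is not resolved by the labels, and the share of a region in the differences between libraries was not tested.

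**Figure D5:**
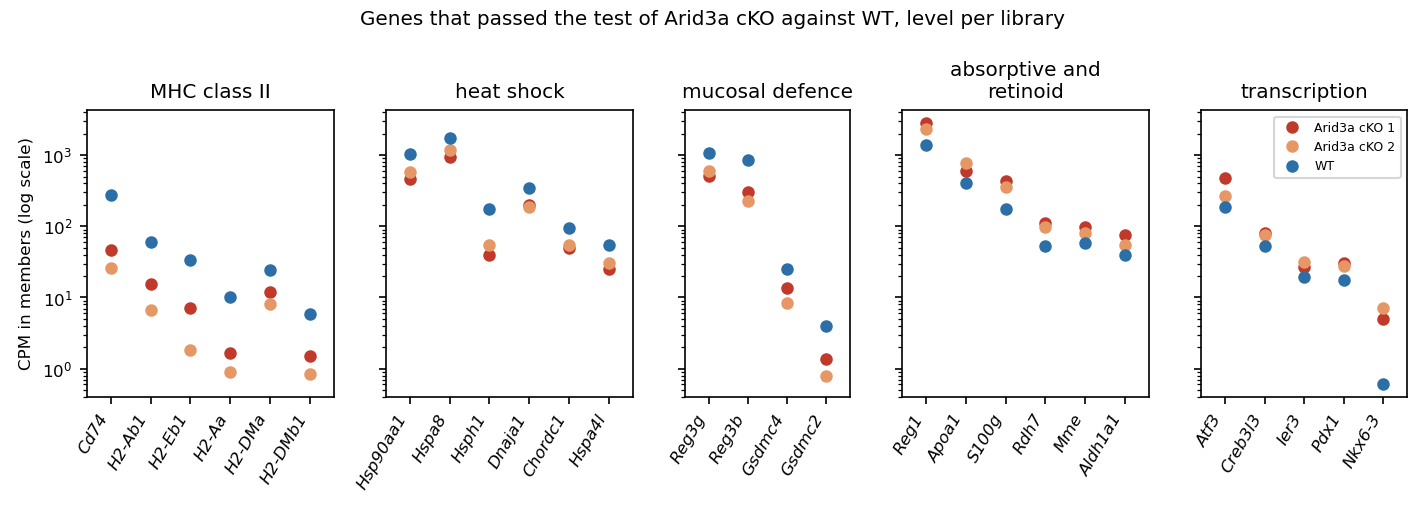
Level in members (CPM, log axis) of genes past the test of Arid3a cKO against WT, 1 point per library, grouped by role. WT lies above both cKO libraries for every MHC class II, heat shock and mucosal defence gene drawn, from Cd74 at 277.8 CPM to Gsdmc2 at 3.916 CPM, and below both for every gene of the last 2 panels.

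Secretory markers within the members also differed between libraries. Goblet markers summed to 2514.9, 4223.5 and 8033.1 CPM, and 8 of 10 fell in Arid3a cKO (median -1.07), against 1 of 10 with DESeq2 and 5 of 10 without members rich in secretory markers (median -0.81). Zg16, a goblet granule lectin, was at 644.9, 1184.8 and 2877.8 CPM with 74.3% of its WT UMIs in 5 cells, and its log2 fold change went from -1.61 to -0.70 without members rich in secretory markers. Muc2, the gel-forming mucin, was at 113.8, 155.4 and 337.8 CPM and had -1.28 with them and -1.69 without. Tff3 had -1.16 and -0.17. In only stem-list members these genes lay the other way, with Zg16 at 1.76 (adjusted p 0.0338), Muc2 at 0.47 and Tff3 at 0.32, of which Muc2 and Tff3 did not pass. Paneth markers summed to 15606.4, 11892.8 and 4744.3 CPM, and 6 of 9 rose (median 1.37; 4 with DESeq2), but without those members 0 rose, 1 fell and the median was -0.18.

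Lyz1, the Paneth lysozyme, was at 1032.7, 1313.1 and 363.2 CPM with 97.2% of the Arid3a cKO 2 UMIs in 5 cells, and its log2 fold change of 1.74 became 0.16 (adjusted p 0.901). Defa24 went from 1.59 to -0.13 and Defa30 from 1.63 to -0.69 in the same way. Of tuft markers 2 of 8 rose, among them Rgs13 with 100% of its Arid3a cKO 1 UMIs in 5 cells, and 0 with DESeq2 or without the secretory-rich members. Enteroendocrine markers gave 2 lower of 10, Gip and Tac1, and with DESeq2 Gip alone. The genes that passed in the MHC class II, heat shock, mucosal defence and retinoid lists all passed as well, in the same direction, without these members, in the fit with infinite prior degrees of freedom. Without stem-list members H2-DMa (adjusted p 0.103), H2-DMb1 (0.151), Hspa1a (0.28), Gsdmc2 (0.0904), Gsdmc4 (0.151) and Aldh1a1 (0.161) no longer passed. Of the same lists, Hspa1a (adjusted p 0.141), Hspa8 (0.0573), Chordc1 (0.0556) and Gsdmc2 (0.169) also missed the threshold in thinned cells. Stromal markers other than Vim were too low to test.

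The genes of the cell cycle and stem lists did not pass, whereas the cyclin Ccnd1, outside these lists, passed as given above. Ccnd1 also passed with DESeq2 (adjusted p 0.0235) and without stem-list members (edgeR, adjusted p 0.00655). It missed the threshold in thinned cells (-0.51, adjusted p 0.624) and in only stem-list members (-0.45, adjusted p 0.46). Cell cycle genes gave 0 calls of 18 in edgeR and in DESeq2 (3 lower at an unadjusted p under 0.05, median -0.16), and Mki67 was at 151.5, 159.5 and 211.6 CPM (log2 fold change -0.40, SE 0.13, adjusted p 0.212). Both the 6 stem list genes and 12 stem cell markers gave 0 calls in both tools, with medians of 0.05 and -0.03 and with 0 and 1 genes at an unadjusted p under 0.05, and Olfm4 was at 147.7, 149.3 and 160.9 CPM. Antioxidant enzymes gave 0 of 18 in both tools, with 4 at an unadjusted p under 0.05.

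Finally, the difference between genotypes was compared between members and mature-list cells of the same libraries, with the library as a block. Of 12196 genes tested 10 passed (0.0820%), 7 with a higher log2 fold change in members (0.0574%) and 3 with a lower one (0.0246%). Gstm1, a glutathione transferase, was at 78.92, 70.41 and 89.34 CPM in members but at 268.8, 259.8 and 658.5 CPM in mature-list cells (difference 1.10, SE 0.11, adjusted p 0.0274). Apoa1 and Rbp2 were higher in cKO in both, more so in members, by 0.40 (SE 0.04) and 0.31 (SE 0.03). In mature-list cells Apoa1 was at 10876.9, 12916.6 and 9159.7 CPM and Rbp2 at 17860.2, 18370 and 15420 CPM. A further 6 of the 10, Mptx2, Clps, Pnliprp2, Gip, Zg16 and Tff3, are genes of secretory or pancreatic-type products. Without secretory-rich cells 19 genes passed (0.159%), 17 higher (0.143%) and 2 lower (0.0168%), with 4 shared, among them Gstm1, Apoa1 and Rbp2. Without stem-list members 2 of 11734 genes passed, 0 of them higher, so Gstm1, Apoa1 and Rbp2 did not pass.

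For most of the genes described above the test of this difference missed the threshold, which does not show that members and mature-list cells were alike. The difference was -0.36 (SE 0.17, adjusted p 0.782) for Cd74, which was at 70.97, 52.8 and 368.1 CPM in mature-list cells. It was 0.18 (SE 0.11, adjusted p 0.809) for Hsph1, at 11.28, 15.37 and 53.69 CPM in mature-list cells. For S100g it was -0.08 (SE 0.24, adjusted p 0.964), with 2456.8, 3209.2 and 1165.2 CPM there. Reg3b gave -0.15 (SE 0.16, adjusted p 0.874), with 2352.8, 1247.9 and 4786.6 CPM.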

How the data were processed

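Single-cell RNA sequencing was analysed in 2 Arid3a cKO libraries and 1 WT library, grouped by the genotype in the labels. The authors processed reads with Cell Ranger and deposited raw UMI counts per gene and barcode. The submitters' processing notes name human genome builds only, for mouse samples, so the mouse build of that counting is not known here. Of 51912 features, 51719 matched GENCODE M21 by identifier. Doublets were kept, since the study's methods name no removal.

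UMIs were summed per library over the members and scaled to CPM. Genes with at least 30 UMIs over the 3 libraries were tested with edgeR 4.0.16 (R 4.3.3; TMM scaling, quasi-likelihood fit, 1 residual degree of freedom, Benjamini-Hochberg 0.05). The study's methods name glmGamPoi, in place of which sums per library were tested here so that cells do not count as replicates. The test of the difference between members and mature-list cells used the library as a block. Shares have exact 95% binomial intervals. On simulated counts for the 13450 genes of the comparison of Arid3a cKO with WT in members, 93% of 100 genes changed 2-fold and 100% of 100 genes changed 4-fold were recovered, with 8 false calls. The changed genes were drawn without those of lowest mean. Every simulated library, WT included, had the fitted trend as its spread, so the figures do not cover low genes, gene-specific spread or a WT that varies otherwise. Other software was scanpy 1.11.5, scipy 1.17.1 and DESeq2 1.42.0.

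The members, gene lists and tests were chosen with earlier results of these data known. Named genes were the rule genes, Krt19, Arid3a, the 10 highest and 10 lowest past the test, up to 4 genes of each list (those past the test first, then by size of the difference), the 8 per direction most unlike mature-list or stem-list cells, and genes past the test of the difference. Some genes that these rules name are not reported here. Others are said to be named after their values were seen, or serve as background to a list. Alternatives were DESeq2, no TMM, no mitochondrial genes, no filter on low counts, looser cell limits, 3 or 5 rule genes, thinned cells, and removal of doublet calls (Scrublet, or the top 5% of scores). Removal of stem-list or secretory-rich members was added after seeing the data.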

Additional observations from a re-analysis of the deposited data

Results flagged for a closer look

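A gene is given here when its difference between Arid3a cKO and WT was unlike in Edn2-Rbp7 cells and mature-list cells by the edgeR test of that difference. There were 10 such genes, of which 9 are reported, each as the log2 fold change in members minus that in mature-list cells. The values were 1.10 for Gstm1, 0.40 for Apoa1 and 0.31 for Rbp2, whose UMIs were spread over cells, with at most 20.39% in 5 member cells. They were 5.65 for Mptx2, 3.62 for Clps and 4.26 for Pnliprp2, of which 5 member cells held between 84.88% and 98.49% of UMIs in each library. For Gip the value was -4.88, with 98.93% of WT UMIs in 5 cells. Zg16 gave -1.91 and Tff3 -0.80, with 74.28% to 87.26% and 47.79% to 54.44% of UMIs in 5 cells. Without secretory-rich cells Gstm1, Apoa1 and Rbp2 still passed, at 1.11, 0.44 and 0.35, and the other 6 did not. Without stem-list members 2 of 11734 genes passed, 0 of them higher in members, so Gstm1, Apoa1 and Rbp2 did not pass.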

How the results depend on the processing

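The share of members in Arid3a cKO minus WT, 6.26 percentage points, lay between 4.72 and 7.8 without either cKO replicate and was 1.24 when only members with 4 or more stem list genes counted. The 156 genes past the test became 58 with DESeq2, 285 without TMM, 286 with every gene of at least 1 UMI, 49 with 5 of 6 rule genes, 38 in thinned cells, 307 without the top 5% of doublet scores, 45 without stem-list members and 99 with only these. Other alternatives gave between 132 and 234 (224 without Scrublet calls, whose automatic cut was not stable in Arid3a cKO 2). The fits with no TMM, all genes, no top doublet scores and no secretory-rich members (206 genes) had infinite prior degrees of freedom, against 25.2. The genes unlike in members and mature-list cells, 10, became 265 with every gene of at least 1 UMI, 21 without TMM, 29 with 5 of 6 rule genes, 131 against all other kept cells, 2 without stem-list members and 19 without secretory-rich cells. The cause was not tested.

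Of the 156 genes, 13 passed in all 14 fits: BC064078, Erdr1, Gm28438, S100g and Wdfy1 higher, and Cd74, Dnaja1, Fmr1nb, H2-Aa, Hspa4l, Hsph1, Mt2 and Reg3b lower. For Gm28438 a division of reads with mt-Nd3 was not tested. Over 73 genes followed, direction was kept without either cKO replicate, as values with no test. Of the other values of these genes, 31 newly passed the threshold, 137 no longer passed, and 20 turned sign. Ghrl was -0.61 with 3 of 6 rule genes, -1.04 in thinned cells and -0.12 without stem-list members. Defa21 was -0.04 with 3 of 6 rule genes, and Edn1 -0.11 with 5 of 6. In only stem-list members Aldh1a1 was -0.09, Apoa1 -0.31, Edn1 -0.11, Areg -0.02, Zg16 1.76, Muc2 0.47, Clca1 0.37 and Tff3 0.32. In thinned cells Lyz1 was -0.05, Itln1 -0.14 and Defa30 -0.61. Without secretory-rich members Defa21 was -0.20, Itln1 -0.21, Defa24 -0.13 and Defa30 -0.69. For the difference from mature-list cells, Mptx2 was -0.02 and Tff3 0.43 without secretory-rich cells, and Gip 0.81 without stem-list members.

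No paired analysis was possible because no label pairs a cKO library with the WT library. A single WT library limits every comparison of genotypes, and genes under 30 UMIs in members were not tested.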

Other observations

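Of the genes of sterol synthesis and its control, 4 were picked because they stood in opposite order to WT in members and mature-list cells, so their levels are a description with no test. Hmgcs1, an early enzyme of the pathway, was at 136.9, 112.5 and 91.99 CPM in members of Arid3a cKO 1, Arid3a cKO 2 and WT, and at 76.4, 67 and 100.6 CPM in mature-list cells. Msmo1, a later demethylation enzyme, was at 77.55, 87.56 and 59.95 CPM against 44.23, 47.94 and 61.51 CPM. Cyp51 was at 71.86, 64.37 and 50.24 CPM against 32.83, 27.52 and 38.02 CPM, and Insig1, the sterol sensor partner, at 63.55, 62.33 and 46.6 CPM against 58.74, 62.89 and 79.97 CPM. In each gene both cKO libraries lay above WT in members and below WT in mature-list cells.

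Another 5 single genes in members were likewise chosen after their values were seen. Nr1d1, a repressor of the clock, was at 42.38, 24.33 and 17.98 CPM (log2 fold change 0.94, adjusted p 0.0149 by edgeR) and Cirbp at 42.53, 39.54 and 23.33 CPM (0.86, adjusted p 0.00152). Per2 did not pass, at 1.335, 1.097 and 3.088 CPM (-1.29, adjusted p 0.103). Gkn3, a gastric-type secreted protein gene, was at 60.65, 71.1 and 39.76 CPM (0.77, adjusted p 0.00639), and Wdfy1 at 24.76, 22.14 and 8.383 CPM (1.53, adjusted p 1.99e-06). With DESeq2 Nr1d1 had an adjusted p of 1.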
